A study of Mus musculus with 12 samples.

Results

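Skeletal muscle RNA was present in all 12 vein libraries of the series, with its marker Ckm differing 30.8-fold between the highest and the lowest, and the libraries at the ends of that range are compared here. The 12 libraries were ranked by Ckm, the muscle creatine kinase gene, in CPM, the counts scaled to a library total of 1e6. The 4 highest were taken as muscle-rich and the 4 lowest as muscle-poor, so that 8 of 12 libraries entered and the middle 4 were left out. Because Ckm chose the libraries, every difference between the muscle-rich and muscle-poor libraries is given as a description, without a test.

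The series holds 6 mouse libraries of the sham group, made from the jugular vein, and 6 of the AVF-CKD group, made from the venous limb of the AVF. All were harvested 7 days after surgery. The labels do not spell out the letters AVF and CKD, read here as arteriovenous fistula and chronic kidney disease. The sources used here do not give strain, age, sex, genotype or any agent. Nor do the labels say that each library came from its own mouse, so the p-values below measure the spread between these libraries. The libraries were made from total RNA with a kit that does not record the strand of the transcript. Library totals lay between 38653830 and 60142016 counts. The muscle-rich libraries were sham 6, sham 2, sham 4 and AVF-CKD 2, and the muscle-poor libraries sham 3, AVF-CKD 5, AVF-CKD 4 and AVF-CKD 3, each in ascending order of Ckm. The ranking was therefore not balanced over the surgery groups, with 3 sham libraries among the 4 muscle-rich and 3 AVF-CKD libraries among the 4 muscle-poor ones. Vessel wall genes were present in every library, with the smooth muscle actin Acta2 at 473 to 1144 CPM and the endothelial gene Pecam1 at 297 to 518 CPM. Neither gene tells vein from other vessels, so the vein label itself was not checked.

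A skeletal muscle fibre is a fused cell packed with sarcomeres, in which myosin thick filaments pull on actin thin filaments anchored at the Z-disc. An action potential opens the coupled calcium channel and ryanodine receptor, calcium binds troponin, and the pump Atp2a1 returns it to the sarcoplasmic reticulum. Fast glycolytic fibres run on phosphocreatine and glycogen and carry the myosin Myh4, whereas slow fibres carry Myh7 and rely on fatty acids and oxygen. Neck veins lie against strap muscles and subcutaneous muscle, whose fibres do not belong to the vein wall.

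The promoters of the 4 marker genes that move together here are printed first, with that of Eef1a2, a translation factor gene outside the muscle lists that moved with them. They are the 250 bases before the RefSeq start, in GRCm38.p6. The windows are chr7:19410844-19411093 on the plus strand for Ckm, chr8:123894776-123895025 on the minus strand for Acta1, chr7:126463074-126463323 on the minus strand for Atp2a1, chr11:67237562-67237811 on the plus strand for Myh4 and chr2:181157016-181157265 on the minus strand for Eef1a2. Capitals mark matches on either strand to CAGCTG, an E-box form recognised by the MyoD family, to TATTTATA, a core recognised by the MEF2 family, or to the TATA box letters TATAAA.
Ckm: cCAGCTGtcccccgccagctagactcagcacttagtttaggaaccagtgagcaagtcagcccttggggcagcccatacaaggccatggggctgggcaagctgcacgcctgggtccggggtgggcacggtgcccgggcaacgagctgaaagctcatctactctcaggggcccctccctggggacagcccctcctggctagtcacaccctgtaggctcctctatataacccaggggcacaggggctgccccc
Acta1: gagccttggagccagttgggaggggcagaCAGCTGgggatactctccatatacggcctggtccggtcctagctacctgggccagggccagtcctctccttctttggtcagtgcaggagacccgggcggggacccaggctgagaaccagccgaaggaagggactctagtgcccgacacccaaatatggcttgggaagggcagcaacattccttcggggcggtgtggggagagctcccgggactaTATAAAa
Atp2a1: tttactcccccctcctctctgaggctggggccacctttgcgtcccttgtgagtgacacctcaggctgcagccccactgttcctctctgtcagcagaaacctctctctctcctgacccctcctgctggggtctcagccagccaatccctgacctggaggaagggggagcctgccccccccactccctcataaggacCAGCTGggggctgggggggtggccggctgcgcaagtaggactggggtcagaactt
Myh4: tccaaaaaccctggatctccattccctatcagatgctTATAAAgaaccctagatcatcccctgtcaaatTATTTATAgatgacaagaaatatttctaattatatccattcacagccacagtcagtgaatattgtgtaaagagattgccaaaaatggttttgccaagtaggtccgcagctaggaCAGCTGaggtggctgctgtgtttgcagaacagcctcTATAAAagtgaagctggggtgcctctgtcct
Eef1a2: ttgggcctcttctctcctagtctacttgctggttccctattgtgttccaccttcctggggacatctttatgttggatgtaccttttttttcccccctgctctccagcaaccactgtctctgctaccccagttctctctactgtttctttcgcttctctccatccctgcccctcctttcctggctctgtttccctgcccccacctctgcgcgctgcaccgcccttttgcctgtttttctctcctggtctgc
Each of the 4 marker windows held CAGCTG, and the Eef1a2 window held none of the 3 motifs. The Myh4 window also held TATTTATA, which always contains a TATAAA on the opposite strand. Of the genes higher in the muscle-rich libraries 155 had a promoter in the table, and 32.3% of these (50 of 155) held CAGCTG in at least 1 promoter. The share was 14.9% of the 11399 described genes with a promoter. Counted by promoter instead of by gene, it was 13% of all 32851 promoters, which belong to 27025 genes. In the same order TATTTATA was found in 9.03%, 1.26% and 1.56%, and TATAAA in 21.9%, 8.47% and 12.4%. Genes with several promoters have more chances of a match. A match is a string of letters in this window and was not examined as a binding site.

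Ckm stood at 53.7, 88.41, 96.42 and 364.4 CPM of the library total in the muscle-poor libraries and at 603.7, 701.5, 1538 and 1656 CPM in the muscle-rich ones, resting on 2827 to 66829 Ckm counts. The middle libraries lay at 459.2 (sham 1), 550.2 (AVF-CKD 6), 566.9 (sham 5) and 594.8 CPM (AVF-CKD 1). The upper boundary therefore fell between neighbours of nearly equal Ckm, with sham 6 at 603.7 CPM just inside and AVF-CKD 1 at 594.8 CPM just outside. At the lower boundary AVF-CKD 3 stood at 364.4 CPM inside and sham 1 at 459.2 CPM outside. The muscle-rich libraries held a pair of high libraries, sham 4 and AVF-CKD 2, and a pair only slightly above the middle.

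From here on CPM uses library sizes scaled by TMM, a correction for composition, whose factors lay between 0.97 and 1.03. CPM is not corrected for gene length, so values of different genes are not comparable with each other. On this scale Ckm averaged 1129 ± 549 CPM (SD, n = 4) in the muscle-rich and 151 ± 143 CPM (SD, n = 4) in the muscle-poor libraries. Acta1, the skeletal actin of the thin filament, stood at 99.8, 195, 342 and 518 CPM in the muscle-poor and 766, 748, 2479 and 2629 CPM in the muscle-rich libraries. Myh4 stood at 55.4, 147, 132 and 435 CPM against 897, 1239, 3523 and 2415 CPM. Atp2a1 stood at 40.6, 113, 119 and 299 CPM against 671, 707, 2069 and 1557 CPM. For each marker the 4 lowest values were the muscle-poor libraries, and sham 4 and AVF-CKD 2 were the highest. Acta1 departed from the Ckm order in the middle, where all 4 libraries (801 to 1455 CPM) exceeded sham 6 and sham 2. Ranked by Acta1, the muscle-rich libraries would have been sham 4, sham 5, AVF-CKD 2 and AVF-CKD 6.

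**Figure D1:**
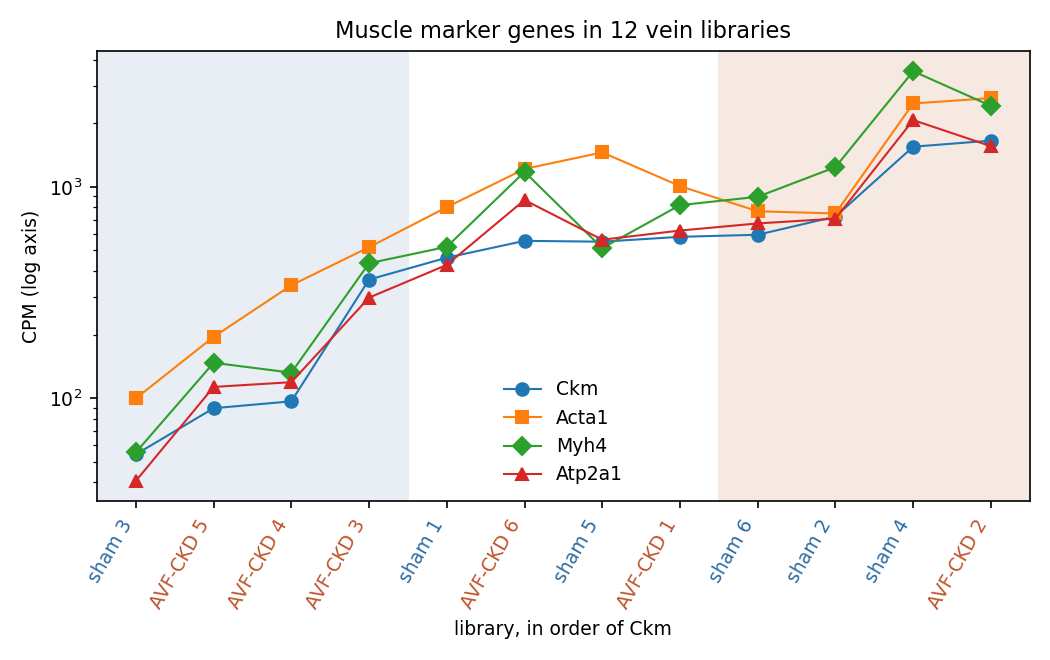
CPM (log axis) of Ckm, Acta1, Myh4 and Atp2a1 in each of the 12 libraries, ordered along the horizontal axis by Ckm. Library names are blue for sham and orange for AVF-CKD, with the 4 muscle-poor libraries on blue shading and the 4 muscle-rich on orange. All 4 genes are lowest in the muscle-poor libraries and highest in sham 4 and AVF-CKD 2; in the middle Acta1 (801 to 1455 CPM) exceeds sham 6 (766 CPM), and Myh4 and Atp2a1 drop from AVF-CKD 6 (1177 and 866 CPM) to sham 5 (513 and 562 CPM).

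The 4 lists for thick filament, thin filament, titin and Z-disc, and calcium coupling, summed, took 0.218% of the counts in sham 3 (95% Wilson interval 0.2172 to 0.2198%) and 2.33% in sham 4 (2.326 to 2.335%). Such intervals cover counting error only. The sum includes genes that other cells also use, such as Tpm1 and Tpm3 (419 and 237 CPM in sham 3), so its low end is not muscle RNA alone. Their share was 0.276%, 0.34% and 0.571% in the other muscle-poor libraries and 0.856%, 0.889% and 2.3% in the other muscle-rich ones, so the ends did not overlap. The middle libraries AVF-CKD 1, AVF-CKD 6 and sham 5, at 0.951%, 1.16% and 1.23%, were above sham 6 and sham 2, which stood higher by Ckm than by this sum. Less muscle tissue and less RNA per fibre cannot be told apart in bulk libraries.

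Across all genes with a mean of 0.5 CPM or more (17370), 229 were at least 2-fold higher in the muscle-rich libraries with all 4 above all 4 muscle-poor ones (1.32%). Ranking by Acta1 gave 323 such genes, 209 of them shared, and dividing all 12 libraries into 6 against 6 by Ckm gave 4: A930016O22Rik, A930018M24Rik, Cox8b and Tmem52. In the other direction 9 genes met the same criteria (0.0518%). That lower count is unstable: it became 21 without sham 2, 30 without sham 3, 28 without sham 6 and 17, 15 and 17 without AVF-CKD 2, AVF-CKD 3 and AVF-CKD 4. The difference is that of mean log2 CPM, with a prior count of 2 added. Most of the transcriptome did not move with the ranking: the median difference was -0.01 on the log2 scale, 94.7% of genes lay within 1.5-fold, and 46.1% were positive. The 229 genes, called followers of Ckm below, added 1.75 percentage points to the share of counts in the muscle-rich libraries. The highest library was sham 4 for 134 followers and AVF-CKD 2 for 82, and the lowest was sham 3 for 162. Within the sham libraries alone (sham 4 and sham 2 against sham 1 and sham 3) and within the AVF-CKD libraries alone (AVF-CKD 2 and AVF-CKD 1 against AVF-CKD 4 and AVF-CKD 5) all 229 followers were positive, which the choice of followers nearly fixes, since 6 of these 8 libraries had entered it. The same fold and overlap criteria were met upward by 314 genes within sham (1.81%) and 428 within AVF-CKD (2.46%). Downward they were met by 65 genes within sham and 322 within AVF-CKD. Overlap is easier to avoid with 2 libraries against 2, so these counts cannot be set against those from 8 libraries.

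**Figure D2:**
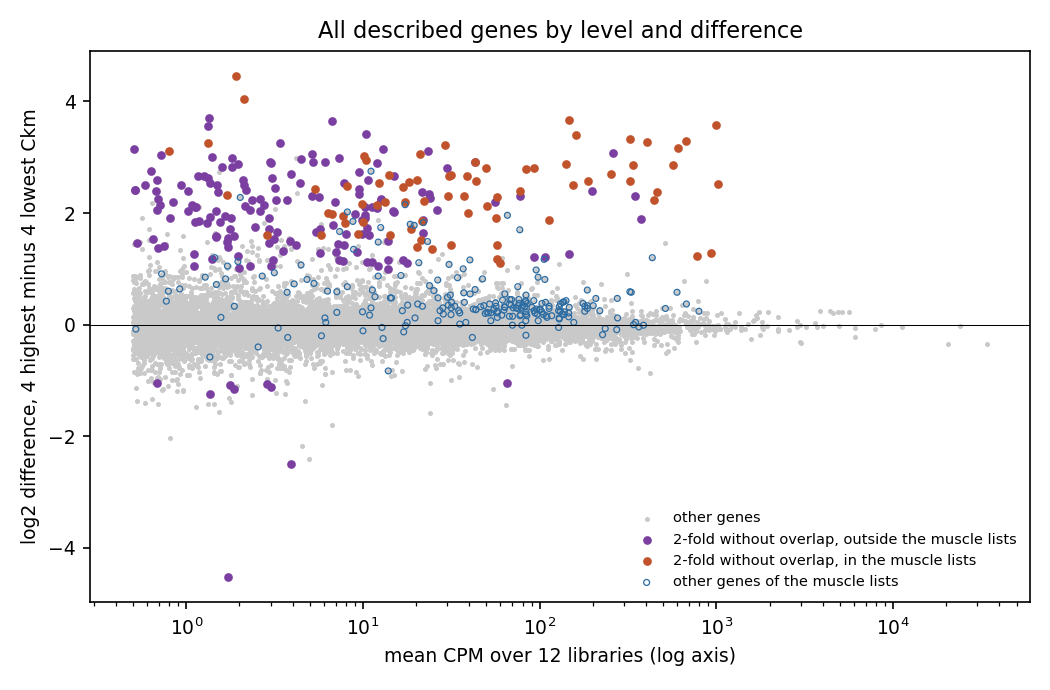
Mean CPM over 12 libraries (log axis) against the log2 difference between the muscle-rich and muscle-poor libraries for 17370 genes. Followers inside the muscle lists are filled orange, followers outside them and the 9 lower genes purple, other muscle list genes open blue and all other genes grey. The followers fan out upward to 4.46 while the grey cloud stays centred near -0.01.

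The 16 muscle lists held 292 genes, of which 287 passed the filter, 74 were followers and 0 were among the lower genes. The sarcomere lists were led by fast isoforms. Of 18 thick filament genes that passed the filter 7 were followers, of 16 thin filament genes 7, and of 31 titin and Z-disc genes 16, with list medians of 1.56, 1.36 and 1.82 against -0.01 for all genes. Mybpc2, the fast myosin-binding protein, stood at 12, 18.3, 24.3 and 46.1 CPM in the muscle-poor and at 152, 192, 513 and 438 CPM in the muscle-rich libraries, a log2 difference of 3.67. The fast troponin T gene Tnnt3 stood at 61, 90.1, 121 and 324 CPM against 468, 594, 1447 and 1481 CPM, a difference of 2.86. Actn3, the alpha-actinin of fast fibre Z-discs, differed by 3.32, and titin (Ttn) by 2.86. Tpm1, a tropomyosin gene also used by smooth muscle and fibroblasts, stood at 419, 427, 351 and 630 CPM against 836, 744, 1361 and 1424 CPM, a smaller difference of 1.23 over a high level in every library.

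Calcium coupling held a larger share of followers than the 3 sarcomere lists, with 17 of 25 genes and a median of 2.17. Pvalb, the calcium buffer of fast fibres, stood at 31.7, 71.9, 40.6 and 278 CPM in the muscle-poor and 446, 473, 949 and 1158 CPM in the muscle-rich libraries, a difference of 3.28. Casq1, which stores calcium in the reticulum, differed by 2.88, the ryanodine receptor gene Ryr1 by 2.79 and the calcium channel gene Cacna1s by 2.66. The sodium channel gene Scn4a differed by 3.02 and the chloride channel gene Clcn1 by 1.99. The junctional protein genes Jph1 and Jph2 differed by 2.69 and 1.10. The neuromuscular junction list had 0 followers among 12 genes, of which 8 were positive, and a median of 0.41. Followers made up 1.32% of all genes described, so 0 in a list this short carries little information. Its most abundant genes, Prkar1a (mean 273 CPM) and Lrp4 (13 CPM), differed by -0.09 and -0.25. Ache (0.93) and Chrne (1.05) had the largest differences of the list, with overlap. Chrng, the fetal acetylcholine receptor subunit, was at 0.939, 0.771, 3.16 and 1.18 CPM in the muscle-poor and 0.498, 0.344, 0.695 and 6.74 CPM in the muscle-rich libraries, and these overlapped. Of 15 dystrophin complex genes 5 were followers, among them the sarcoglycan Sgca (2.01), while Dag1 (0.04) and Lama2 (-0.01) were not.

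Fuel use divided by pathway. Phosphate buffering and glycogenolysis held 15 followers among 29 genes, all 29 positive, with a median of 1.17. Pygm, the muscle glycogen phosphorylase, stood at 10.6, 27.1, 28.2 and 69 CPM in the muscle-poor and 163, 234, 462 and 392 CPM in the muscle-rich libraries, a difference of 3.40. Ampd1, the muscle AMP deaminase, differed by 3.22, Pgam2, the muscle phosphoglycerate mutase, by 2.92, and Eno3, the muscle enolase, by 2.58. Glycolytic genes that most cells express differed less. Aldoa stood at 479, 382, 642 and 781 CPM against 998, 1137, 1636 and 1717 CPM, a difference of 1.28 without overlap. Ldha differed by 0.58, Gapdh by 0.47, Pkm by 0.24 and Gpi1 by 0.12, and none of these 4 was a follower. Gapdh stood at 223, 151, 269 and 311 CPM against 238, 308, 320 and 443 CPM, so a gene often used to scale other genes was higher on average where Ckm was higher, with overlap.

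Mitochondrial genes moved little as groups but divided sharply by isoform. All 52 nuclear genes of oxidative phosphorylation were positive, with a median of 0.29 and 0 followers. All 25 genes of the citric acid cycle were positive too, with a median of 0.34 and 0 followers. Both lists also leaned by surgery group. In AVF-CKD against sham 0 of 52 and 2 of 25 genes were positive by edgeR (median log2 fold changes -0.16 and -0.14). With log2 Ckm as a covariate 1 and 2 were positive (medians -0.15 and -0.12). The ranking was not balanced over the surgery groups, and the part of each in these leans was not tested. Muscle isoforms of mitochondrial proteins had a median of 1.37 with 3 followers among 8 genes. Cox6a2, the heart and muscle isoform of a cytochrome oxidase subunit, stood at 5.21, 3.6, 6.49 and 12.8 CPM in the muscle-poor and 13.6, 20.8, 49.8 and 52.1 CPM in the muscle-rich libraries, a difference of 2.21. Its widely expressed counterpart Cox6a1 differed by 0.10. Cox8b differed by 1.61 and Cox8a by 0.16, and Cox7a1 by 1.85 with overlap and Cox7a2 by 0.07. Oxygen and fatty acid use held 1 follower among 25 genes, the uncoupling protein gene Ucp3 (1.60). Cd36 (-0.00) and Lpl (-0.01), which take fatty acids into fat, endothelium and muscle, did not differ on average. Sham 6 was high in both, with 702 CPM of Cd36 and 838 CPM of Lpl, and was also the library with most fat RNA (summed fat list 5606 CPM against 1003 to 2580 CPM in the other 11). The part of fat in these values was not tested.

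**Figure D3:**
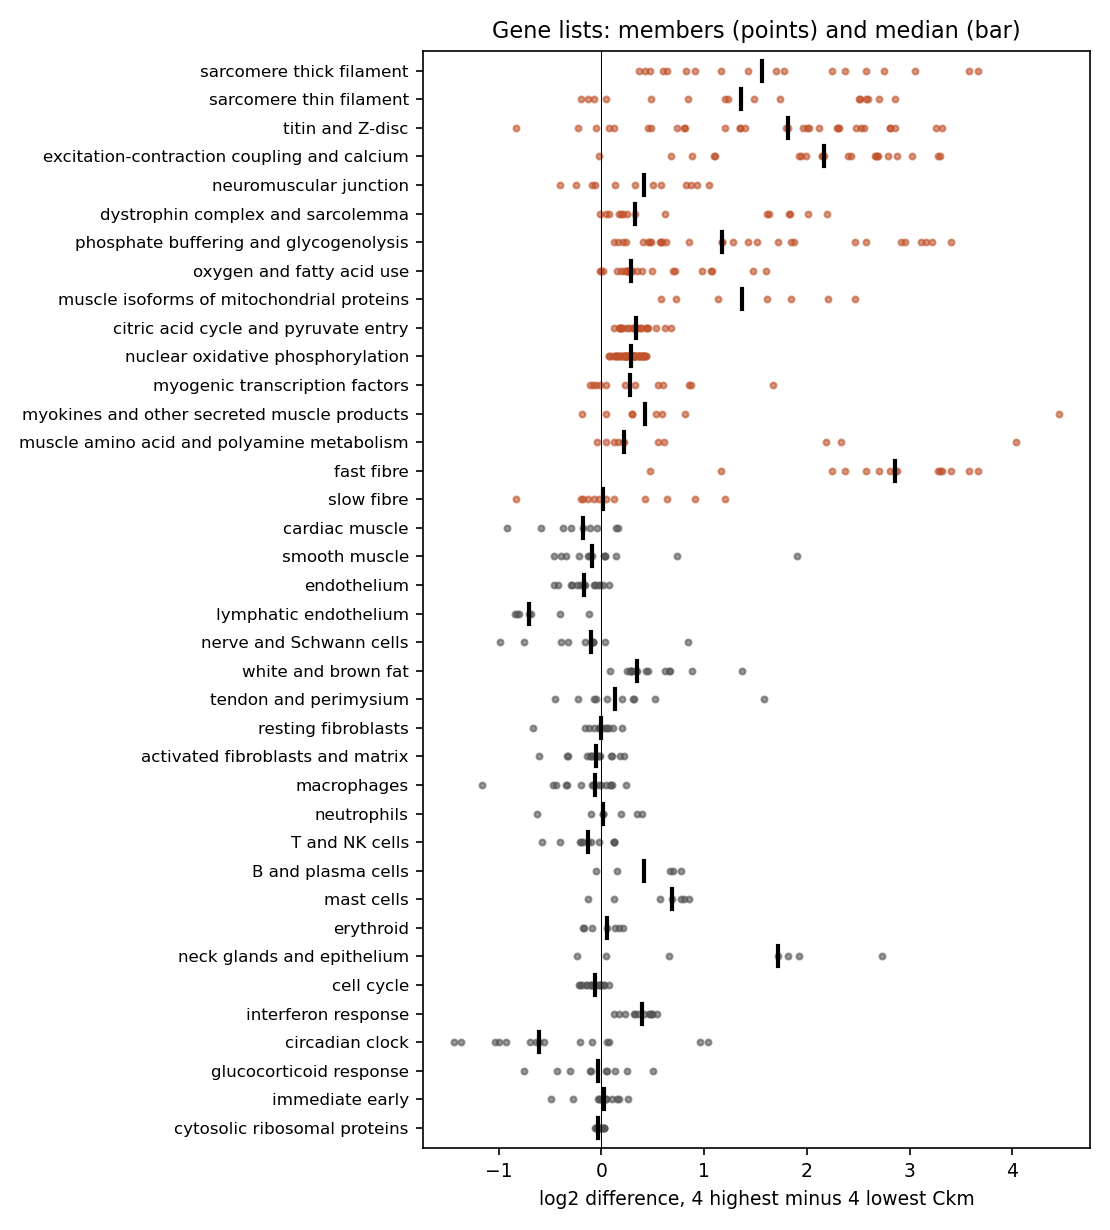
Log2 difference between the muscle-rich and muscle-poor libraries for every list member that passed the filter (points; orange for the 16 muscle lists, grey for the other 22) with the list median as a black bar. The fast fibre list has its median at 2.86 and calcium coupling at 2.17, while slow fibre (0.01), cardiac muscle (-0.18) and smooth muscle (-0.09) lie near 0.

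Of the 229 followers 155 lay outside the muscle lists, and 125 of these were protein coding. They were less abundant than the followers inside the lists, with a median level of 3.23 CPM against 31.1 CPM. Mettl21c, a lysine methyltransferase gene, stood at 0.153, 0.295, 0.149 and 0.212 CPM in the muscle-poor and 2.03, 4.09, 4.84 and 2.17 CPM in the muscle-rich libraries, a difference of 3.71. Tmem233, a membrane protein gene, stood at 0.46, 0.771, 0.833 and 2.69 CPM against 7.51, 9.44, 20.3 and 16.6 CPM, a difference of 3.65. Scn4b, a sodium channel beta subunit, differed by 3.42. The potassium channel genes Kcnc4 (3.26), Kcna7 (2.91) and Kcnj11 (2.66) followed too, with Kcnj12 (2.38) and Kcng4 (1.86), together 5 of 47 potassium channel genes described. The calcium channel subunit gene Cacng6 differed by 2.91.

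Translation was represented by 2 muscle paralogs of genes active in every cell. Eef1a2 stood at 3.49, 8.48, 10.7 and 19.4 CPM in the muscle-poor and at 37.5, 47.7, 107 and 104 CPM in the muscle-rich libraries, a difference of 2.91. Its paralog Eef1a1 lay between 4002 and 5630 CPM in all 12 libraries and differed by -0.02. Rpl3l stood at 1.26, 2.09, 1.99 and 7.3 CPM against 12.3, 19.9, 35.2 and 29.8 CPM, a difference of 3.15, and its paralog Rpl3 differed by -0.03. The paralog of restricted expression followed Ckm in both pairs and the widespread one did not.

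Protein turnover genes formed a further group, grouped by name after their values were seen. Of 16 Asb genes described, which encode substrate receptors of ubiquitin ligases, 9 were followers, and the family median was 1.75. Asb11 stood at 0.594, 0.363, 0.555 and 1.73 CPM in the muscle-poor and 3.65, 3.33, 9.68 and 6.74 CPM in the muscle-rich libraries, a difference of 2.89. Asb16 differed by 2.63, Asb12 by 2.51, Asb14 by 2.45, Asb15 by 2.42, Asb10 by 1.95, Asb2 by 1.92 and Asb18 by 1.58. Among 40 Klhl and Kbtbd genes, another family of ligase adaptors, 6 were followers around a family median of -0.01, led by Klhl31 (2.67). Fbxo40 differed by 2.89 and was the 1 follower among 30 Fbxo genes. Trim63 and Fbxo32, ubiquitin ligases known to be induced in wasting muscle, were not followers. Trim63 stood at 1.15, 2.2, 3.2 and 3.03 CPM against 6.06, 3.18, 18.2 and 20 CPM, a difference of 2.02. It missed the overlap criterion only because sham 2 (3.18 CPM) lay just below AVF-CKD 4 (3.2 CPM). Fbxo32 stood at 20.8, 30.3, 16.3 and 18.4 CPM against 22.7, 21.7, 43.7 and 33.7 CPM, a difference of 0.48 with overlap.

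Of 8 secreted muscle products that passed the filter 1 was a follower, and the list median was 0.42. Igf1 (0.04), Metrnl (-0.19) and Fndc5 (0.81) were not followers. The 1 follower, Mstn, the myostatin gene, whose product limits muscle growth, stood at 0.307, 0.0907, 0 and 0.508 CPM in the muscle-poor and 2.66, 2.66, 9.15 and 3.59 CPM in the muscle-rich libraries, a difference of 4.46. Aqp4, a water channel of fast fibres, differed by 4.04, on levels of 0 to 1.1 CPM in the muscle-poor libraries. Hfe2, which encodes the iron regulator hemojuvelin, stood at 3.08, 5.49, 8.46 and 15.8 CPM against 27, 36.5, 70.6 and 77.8 CPM, a difference of 2.80. At such low levels in the muscle-poor libraries the size of the difference for Mstn and Aqp4 depends on few counts.

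Several followers are better known from nerve or blood, and were named after their values were seen. Camk2a, a kinase abundant in brain, stood at 2.4, 4.35, 6.62 and 5.73 CPM in the muscle-poor and 12.1, 19.6, 30.8 and 27.9 CPM in the muscle-rich libraries, a difference of 2.24. The splicing factor gene Rbfox1 differed by 1.97, the tau gene Mapt by 1.84 and the neuronal nitric oxide synthase gene Nos1, whose enzyme is also held at the fibre membrane, by 1.57. None of the 11 nerve and Schwann cell genes was a follower, their median was -0.10, and their summed levels overlapped (301.3 to 339.7 CPM in the muscle-rich and 267.8 to 418.2 CPM in the muscle-poor libraries). Ank1 and Sptb, cytoskeleton genes of red cells and muscle, differed by 2.34 and 1.88, while the 7 erythroid genes had a median of 0.05 and 0 followers. Followers made up 1.32% of all genes described, so 0 in nerve and erythroid lists this short carries little information. The source of these followers was not tested. Receptor genes of hormones were also among the followers, with the calcium-sensing receptor Casr at 2.14 and the corticotropin-releasing hormone receptor Crhr2 at 1.58. Des, the desmin gene, counted here in the smooth muscle list, stood at 98.3, 90.5, 190 and 197 CPM against 258, 322, 803 and 957 CPM, a difference of 1.90, and was the 1 follower among 13 smooth muscle genes. Acta2 (0.03) and Tagln (-0.09) of the same list did not differ on average.

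Some followers share exonic bases with a muscle gene on the opposite strand. Of the 149 followers outside the lists that have GENCODE coordinates, 10 lay within 5 kb of a follower inside the lists (6.71%), and all 10 overlapped its exons on the opposite strand. Among 16752 other genes 71 lay within 5 kb of those muscle genes (0.424%). A930016O22Rik (chromosome 7, 19417466 to 19421417, minus strand, GRCm38) lies inside Ckm (19404776 to 19422841, plus strand), with 17.6% of its exonic bases shared. Its ratio to Ckm varied by 0.28 on the log2 scale over the 12 libraries, the least of all genes with a mean of 1 CPM or more. Next came Tnnt3 (0.67), Myoz1 (0.73), Rpl3l (0.82), Pgam2 (0.82), Gm17224 (0.87), Pygm (0.91), Tmod4 (0.93), Tnni2 (0.93), Actn3 (0.97), Casq1 (0.98) and Dhrs7c (1.02). Gm17224, like A930016O22Rik, overlaps a muscle gene, Casq1. Since the libraries do not record strand, reads on the shared bases of such pairs cannot be told apart by strand.

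Ube2c, a cell cycle gene whose product marks proteins for destruction in mitosis, is another such gene. It stood at 64.1, 76.1, 109 and 215 CPM in the muscle-poor and 303, 326, 765 and 889 CPM in the muscle-rich libraries, a difference of 2.30. Its exons overlap 74% of the exonic bases of Tnnc2, the fast troponin C gene. Tnnc2 stood at 45.7, 57.3, 88.3 and 191 CPM against 282, 307, 749 and 863 CPM. Subtracting Tnnc2 from Ube2c left 18.4, 18.7, 21.2 and 24.2 CPM in the muscle-poor and 21.1, 18.3, 16.3 and 26.5 CPM in the muscle-rich libraries, which overlapped, and 16.3 to 32.3 CPM over all 12. The remainder was highest in sham 5, the library with the highest Mki67 (126 CPM), but did not keep the order of Mki67 elsewhere. It was 26.5 CPM in AVF-CKD 2 (Mki67 84.9 CPM) and 23.5 CPM in AVF-CKD 6 (Mki67 109 CPM). The subtraction takes every Tnnc2 read as counted for Ube2c too, which was not tested. The 18 genes of the cell cycle list, with Mki67 (-0.10) and Top2a (-0.10) the most abundant, had a median of -0.06 and 0 followers (1.32% of all genes described were followers). Rabep2, an endosome gene whose exons overlap 21.9% of those of Atp2a1, differed by 2.40 and stood at 39.8, 50.5, 59.3 and 105 CPM against 202, 207, 536 and 432 CPM.

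**Figure D4:**
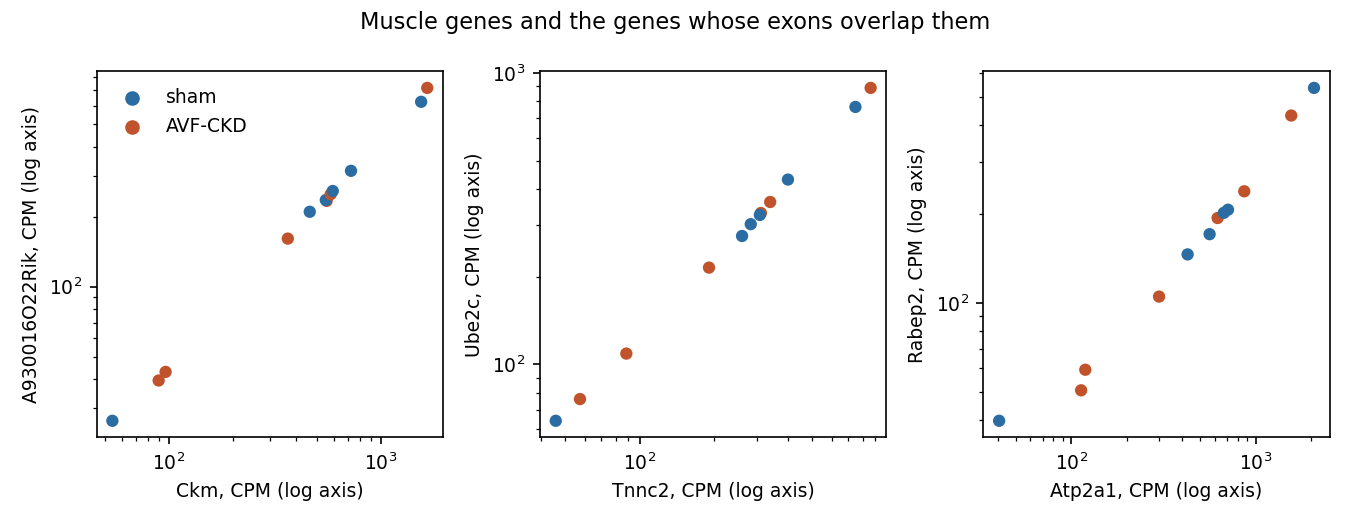
CPM on log axes of 3 muscle genes (horizontal) against the gene on the opposite strand that overlaps their exons (vertical), 1 point per library, blue for sham and orange for AVF-CKD. A930016O22Rik and Ube2c lie on nearly straight lines with Ckm and Tnnc2 (log2 ratios that vary by 0.28 and 0.46 over 12 libraries), and Rabep2 bends from Atp2a1 at the low end (1.92).

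The muscle RNA was not of 1 kind in all libraries, and the genes that did not follow Ckm show this. Of 15 fast fibre genes 13 were followers (median 2.86), and of 12 slow fibre genes that passed the filter 0 were (median 0.01). Followers made up 1.32% of all genes described, so 0 in a list this short carries little information. The most abundant slow list genes were Tpm3 (mean 235 CPM, difference -0.07), which other cells also use, and Atp2a2 (227 CPM, -0.18). Myh7 and Myl2 averaged 0.725 and 0.918 CPM. The slow list median is therefore not a measure of slow fibres alone. On the RPKM scale, which corrects for length, Myh4 made up 92.9%, 98.1%, 90.2% and 83.9% of the 4 adult skeletal myosin heavy chains in the muscle-rich libraries and 58.3%, 57.6%, 45.8% and 82.9% in the muscle-poor ones. These shares did not overlap, although AVF-CKD 3 and AVF-CKD 2 were close. Myh1, of intermediate fast fibres, supplied most of the rest, from 1.47% in sham 2 to 50.5% in AVF-CKD 4. Myh2 reached 18.7% in sham 5, and Myh7 was at most 0.24% in any library. Myh3 and Myh8, the fetal myosins, made up 0.645% of the 6 skeletal myosins in sham 2 and 18% in AVF-CKD 4.

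Genes of immature, regenerating or denervated fibres ranked the libraries in another order. Myh3 stood at 6.42, 2.74, 25.8 and 7.26 CPM in the muscle-poor, 2.11, 50.6, 40.8 and 29.3 CPM in the middle and 4.67, 3.53, 8.87 and 62.3 CPM in the muscle-rich libraries. Myog, the transcription factor of fusing muscle cells, stood at 5.25, 2.74, 12.1 and 6.94 CPM, at 4.55, 18.3, 22.6 and 13.1 CPM and at 4.73, 2.06, 3.77 and 24.2 CPM in the same order. Tmem8c, the fusion protein myomaker, stood at 1.48, 1.22, 4.18 and 2.16 CPM, at 0.72, 6.73, 6.35 and 6.97 CPM and at 1.2, 0.633, 0.857 and 12.5 CPM. All 3 genes were highest in AVF-CKD 2, AVF-CKD 6, sham 5 and AVF-CKD 1 and low in sham 2 and sham 6, with AVF-CKD 4 the highest of the muscle-poor libraries. Actc1, the cardiac actin that immature fibres use, reached 88.2 (AVF-CKD 2), 81.2 (sham 5) and 61.8 CPM (AVF-CKD 6) and lay between 8.18 and 36 CPM in the other 9. Mb, the oxygen store myoglobin, was at 18.6 and 17.5 CPM in sham 6 and sham 2, below the muscle-poor AVF-CKD 3 (47.1 CPM), and at 288 CPM in sham 5. Csrp3, a Z-disc stretch protein typical of slow and cardiac fibres, was at 1.2 and 0.868 CPM in sham 6 and sham 2 and at 66.8 CPM in sham 5. For these 6 genes sham 6 and sham 2 stood below sham 5 and AVF-CKD 6, which had nearly the Ckm of sham 6. Sums of the oxidative lists did not share that order in sham 6, which had the highest of all 12 libraries for oxygen and fatty acid use (3617 CPM, against 1684 CPM in sham 2) and for the citric acid cycle (3450 CPM, against 2428 CPM in sham 2).

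**Figure D5:**
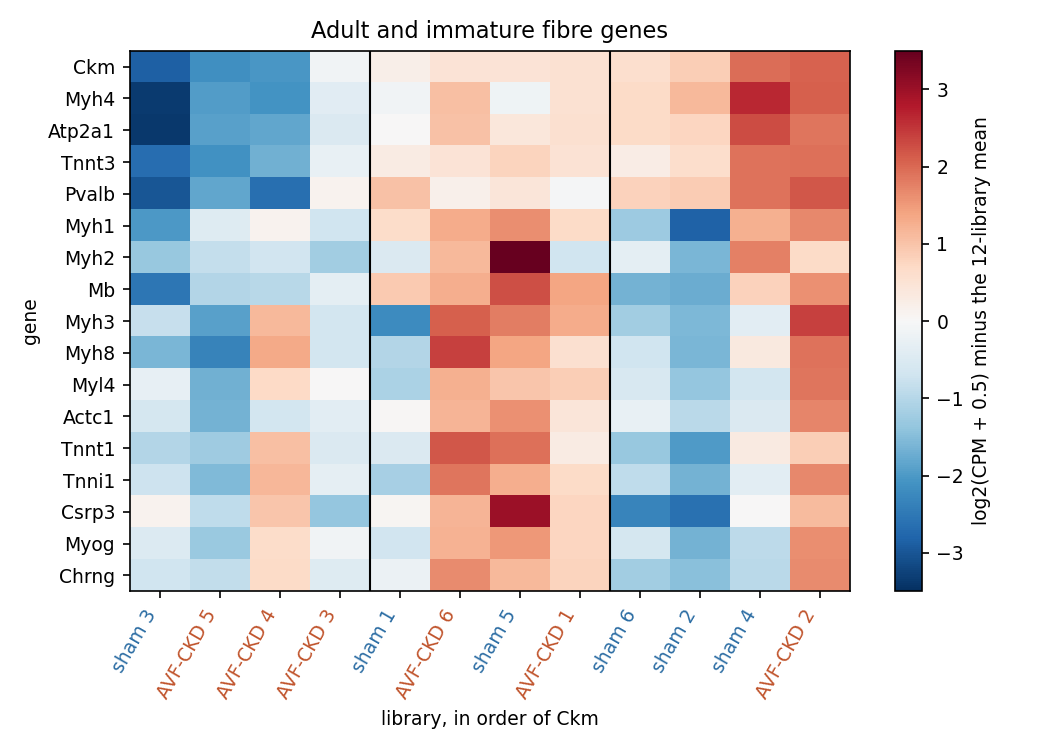
Log2(CPM + 0.5) of 17 muscle genes minus each gene's mean over 12 libraries (red above, blue below), with libraries in order of Ckm and black lines between the muscle-poor, middle and muscle-rich libraries. The upper 5 rows pass from blue to red along the Ckm order, and the lower rows are red in AVF-CKD 6, sham 5 and AVF-CKD 2 and blue in sham 6 and sham 2.

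The 9 lower genes were Ccl17, Cldn11, Omp, Acsbg1, Celf4, Ighg2c, Gm12840, Gm29408 and Gm21451. Ccl17, a chemokine of dendritic cells, stood at 4.06, 7.52, 2.54 and 12.2 CPM in the muscle-poor and 1.08, 1.21, 0.625 and 0.982 CPM in the muscle-rich libraries, a difference of -2.50. Cldn11, a tight junction gene, stood at 2.09, 2.77, 1.39 and 2.45 CPM against 0.955, 1.18, 0.648 and 0.749 CPM, a difference of -1.25. Ighg2c, an immunoglobulin constant segment, differed by -4.53. These genes were few and of low level, except Gm12840 at a mean of 65.3 CPM.

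Lists of other tissues held no follower apart from Des, though some leaned to one side. The neck gland and epithelium list had a median of 1.72 (6 of 7 genes positive), the mast cell list 0.69 (6 of 7 positive) and the lymphatic endothelium list -0.71 (0 of 7 positive). In the neck gland list sham 6 stood apart, with a sum of 93.53 CPM. The other muscle-rich libraries had 19, 31.33 and 26.48 CPM, and the muscle-poor ones 14.58 to 24.6 CPM. Nearer to 0 there were 0 followers and 0 lower genes among 15 endothelial (median -0.17), 17 activated fibroblast and matrix (-0.05), 14 resting fibroblast (-0.00), 17 macrophage (-0.06), 7 neutrophil (0.01), 11 T and NK cell (-0.13), 10 tendon (0.13) and 20 ribosomal protein genes (-0.03). With 1.32% followers and 0.0518% lower genes among all genes described, such zeros in short lists carry little information. The fat list had a median of 0.35 with all 15 genes positive, and sham 6 alone stood far above the rest. In AVF-CKD against sham 0 of 15 fat genes were positive by edgeR (median log2 fold change -0.88). The same held for 0 of 6 neck gland genes tested (-1.02). The ranking was not balanced over the surgery groups, and the part of each in these leans was not tested. The clock list had a median of -0.61, with Dbp, an output gene of the clock, at 93.5, 99.5, 77.6 and 81.5 CPM in the muscle-poor and 6.14, 93.2, 21.4 and 87.5 CPM in the muscle-rich libraries. Sham 6 and sham 4 were low in Dbp, as were the middle libraries AVF-CKD 6 (7.64 CPM) and sham 5 (7.24 CPM). Without sham 6 and sham 4, 263 genes were higher and 86 lower. Overlap is easier to avoid with fewer libraries, so these counts cannot be set against those from 8. Ribosomal DNA models took 3.89 to 6.25% of counts in the muscle-rich and 5.05 to 7.46% in the muscle-poor libraries. The part of these differences in the list of followers was not tested.

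The surgery groups themselves, which the ranking did not use, were compared for muscle RNA. The 6 sham libraries averaged 655 ± 493 CPM of Ckm (SD, n = 6) and the 6 AVF-CKD libraries 557 ± 578 CPM (SD, n = 6). On the log2 scale AVF-CKD minus sham was -0.407, smaller than the SD within either group (1.63), with a two-sided exact permutation p of 0.701 over 924 assignments. The share of the 4 lists in the counts was 0.932 ± 0.752% in AVF-CKD and 1.05 ± 0.709% in sham (SD, n = 6, exact permutation p = 0.762). The Myh7 share of adult myosin was 0.0323 ± 0.0555% and 0.0653 ± 0.0958% (SD, n = 6, exact permutation p = 0.61). Adjusted over these 3 tests all p-values were 0.762, and the smallest the design allows before adjustment is 0.00216. The difference in that share changed sign when sham 4 (0.142 percentage points), AVF-CKD 4 (0.00405) or AVF-CKD 5 (0.0168) was left out, and the difference in Myh7 share when sham 3 was (0.00197).

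Gene by gene, edgeR's quasi-likelihood test made 0 calls upward and 0 downward among 18965 genes at an adjusted p under 0.05 (0% each way, AVF-CKD against sham), with 1772 at an unadjusted p under 0.05. With log2 Ckm as a covariate the counts were again 0 and 0 (0%), with 1574 at an unadjusted p under 0.05. DESeq2 called 67 genes higher and 39 lower of 17108 (0.392% and 0.228%). Among the 229 followers, all tested, 184 were negative with a median log2 fold change of -0.24 and a median standard error of 0.60, while 49.1% of all genes were positive. That lean is no result, since followers were chosen as high in 3 sham and 1 AVF-CKD libraries and low in 1 sham and 3 AVF-CKD libraries. Entering Ckm, the value that chose the libraries, as a covariate left 102 negative, with a median of 0.04 and a median standard error of 0.25, while the median standard error of all genes was 0.14 in both fits. The lowest adjusted p of a follower was 0.483.

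Of 285 muscle list genes tested 19 were at an unadjusted p under 0.05 (6.67%, against 9.34% of all genes tested), and 0 passed the adjusted threshold. The smallest p-values upward in AVF-CKD belonged to Mef2d, Tmem8c and Carns1, and downward to Mdh1, Cryab and Decr1. Tmem8c had a log2 fold change of 1.59 ± 0.65 (SE, adjusted p = 0.501 by edgeR), and 1.49 ± 0.63 with Ckm as a covariate. Mdh1, a malate dehydrogenase, had -0.36 ± 0.12 (SE, adjusted p = 0.444 by edgeR), and Cryab, a small heat shock protein of muscle and lens, -0.42 ± 0.15 (adjusted p = 0.461 by edgeR). Acta1 had -0.10 ± 0.68, Myh4 -0.40 ± 0.84 and Atp2a1 -0.32 ± 0.77, which became 0.23 ± 0.23, 0.18 ± 0.21 and 0.20 ± 0.17 (SE) with Ckm as a covariate, all with adjusted p-values of 0.777 or more by edgeR.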

How the data were processed

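RNA of 12 mouse vein libraries (6 sham, 6 AVF-CKD, grouped by sample title) was sequenced on a HiSeq instrument after TruSeq v2 preparation, per the labels. The deposited table gives whole-number read counts and RPKM values for 43346 genes, and the submitters' processing notes name GRCm38, TopHat2 2.1.0, featureCounts and edgeR without assigning steps. The sources used here do not say how reads of overlapping genes were assigned. The authors' RPKM values were used for myosin shares alone.

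The members of the comparison and the 38 gene lists were chosen with earlier results of these data known. Of 575 list entries 574 matched the table, 6 of them through GENCODE M21 symbols. Promoter sequences are from RefSeq (GRCm38.p6), and gene positions from GENCODE M21 (42462 identifiers found). All 66 library pairs differed by more than sampling noise (chi-square divided by its degrees of freedom, 47.8 to 212).

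Muscle-rich and muscle-poor libraries were described by differences of mean log2 CPM (TMM, prior count 2) for genes with a mean of 0.5 CPM or more, counted at 2-fold without overlap. Sham and AVF-CKD were compared with the quasi-likelihood test of edgeR 4.0.16 in R 4.3.3 (filterByExpr, Benjamini-Hochberg adjusted p under 0.05, coefficient of variation 24.2%), with DESeq2 1.42.0 as an alternative, and by exact permutation for single library measures. Both procedures were tested on simulated data. Other scalings, filters, rankings, folds and omitted libraries were tried. Comparisons within each surgery group, and without 2 libraries of low Dbp, were added after seeing the data.

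Genes were named by rule: the 4 markers, the 2 most abundant genes of each list, the 2 muscle list genes of largest difference per muscle list, the 20 genes with the largest upward and up to 12 with the largest downward difference outside the lists (mean of 1 CPM or more, predicted models and receptor segments left out), the 12 genes of steadiest ratio to Ckm, and the 3 muscle list genes of smallest p in each direction between surgery groups. All other genes were named after their values were seen.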

Additional observations from a re-analysis of the deposited data

Results flagged for a closer look

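A library stood apart from the other 5 of its surgery group, by Dixon's criterion for 6 values, in 13 of 84 measure and group combinations. Chance would give about 1 in 20 for independent, normally distributed values. Most measures are sums without log scale, and lists share genes (Atp2a1, Casq1 and Pvalb are in both the fast fibre and calcium coupling lists). The 13 therefore cannot be set against that rate. Muscle measures account for 7 of the 13. Log2 Ckm in sham 3 was 5.759 against 8.853 to 10.6 in the other sham libraries. Sham 4 stood above the other sham libraries in summed CPM of calcium coupling genes (4527 against 198.3 to 1773) and of fast fibre genes (14093 against 544.2 to 5501). Sham 5 stood above them in slow fibre genes (731.7 against 428.7 to 522.5) and sham 6 in genes of oxygen and fatty acid use (3617 against 1646 to 2060). In AVF-CKD the Myh7 share of adult myosin was 0.1453% in AVF-CKD 4 against 0.004404 to 0.01582%. Neuromuscular junction genes summed to 428.5 CPM in AVF-CKD 6 against 313.1 to 353.4 CPM. Prkar1a alone gave 317 CPM of the sum in AVF-CKD 6, against 250 to 298 CPM in the other AVF-CKD libraries.

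The remaining 6 concern other tissues and processes, as summed CPM. Sham 6 was high in fat genes (5606 against 1181 to 2580) and in neck gland and epithelium genes (93.53 against 19 to 31.33). Sham 5 was high in cell cycle genes (769 against 411.8 to 528.9), and sham 4 low in B and plasma cell genes (6.6 against 14.38 to 16.61). AVF-CKD 2 was high in T and NK cell genes (89.14 against 47 to 60.82) and AVF-CKD 1 in interferon response genes (967 against 659.2 to 772.7).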

How the results depend on the processing

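Between 222 and 285 genes were higher and 11 to 30 lower in the muscle-rich libraries when 1 of the 8 libraries was left out. The count of 229 followers stayed within 1.5 times under other scalings (228 to 236), prior count, filters, ranking genes (323 by Acta1, 243 by 4 markers), 3 against 3 libraries and 1.5-fold. It was 4 with 6 against 6 libraries, where libraries of nearly equal Ckm fall on both sides, and 428 within AVF-CKD. The 9 lower genes became 49 without a filter, 52 with 3 against 3, 0 with 6 against 6, 26 at 1.5-fold, 65 within sham, 322 within AVF-CKD and 86 without the muscle-rich libraries of low Dbp. Overlap is easier to avoid with fewer libraries, and without a filter 30299 genes were described instead of 17370. The part of each in these counts was not tested.

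For the surgery groups DESeq2 called 67 genes higher and 39 lower where edgeR called 0 and 0. Leaving out 1 library gave 0 to 1 higher, the 1 without AVF-CKD 3, and 0 lower. The difference in log2 Ckm ranged from -1.02 to -0.0187, the share of the 4 sarcomere and calcium lists from -0.388 to 0.142 percentage points and the Myh7 share from -0.0556 to 0.00197, with signs reversed without sham 4 (0.142), AVF-CKD 4 (0.00405), AVF-CKD 5 (0.0168) and, for Myh7, sham 3 (0.00197). The title numbers were not taken as pairs: same-numbered libraries correlated at -0.03, 0.242, 0.277, -0.109, -0.104 and 0.142, and 1 of 6 pairs was the best match of its own number. Correlations of this kind cannot exclude that the numbers pair the libraries. With the number as replicate block edgeR called 0 and 0 genes (2058 at an unadjusted p under 0.05), and the exact sign-flip p-values were 0.781 for Ckm (-0.407), 0.812 for the share (-0.114) and 0.812 for Myh7 (-0.033).

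Differences of genes under 1 CPM rest on few counts.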

Other observations

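Lymphatic, mast cell and interferon lists were among those outside muscle that leaned to one side of the ranking without a gene that met the fold and overlap criteria. All 7 lymphatic endothelial genes were lower on average in the muscle-rich libraries, with a list median of -0.71. Lyve1, a hyaluronan receptor of lymphatic vessels and some macrophages, averaged 50.6 ± 14.9 CPM in the muscle-rich and 68 ± 22.5 CPM in the muscle-poor libraries (SD, n = 4). Of 7 mast cell genes 6 were positive (median 0.69), with the chymase gene Cma1 at 10.3, 17.4, 19.4 and 16.3 CPM in the muscle-rich and 14.7, 13.9, 10.1 and 2.6 CPM in the muscle-poor libraries, overlapping. All 12 interferon response genes were positive (median 0.39), and their sum was highest in sham 2 at 1649 CPM. Sham 4 stood at 1097 CPM and AVF-CKD 2 at 661.7 CPM, against 659.2 to 1010 CPM in the muscle-poor libraries. These lists also leaned by surgery group. In AVF-CKD against sham 0 of 12 interferon genes were positive by edgeR (median log2 fold change -0.63). So were 1 of 7 mast cell genes (-0.28) and 5 of 7 lymphatic genes (0.22). The ranking was not balanced over the surgery groups, and the part of each in these leans was not tested.

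Sham 6 carried RNA of further tissues beside muscle. The basal keratin gene Krt5 was at 7.03 CPM there and at most 0.13 CPM in the other 11 libraries, and Adipoq, a hormone gene of fat cells, was at 386 CPM against 61.4 to 179 CPM. The neck gland and epithelium list had a median difference of 1.72 between muscle-rich and muscle-poor libraries. Its sum was 93.53 CPM in sham 6 and 14.58 to 31.33 CPM in the other 11. Leaving out sham 6 changed the higher genes from 229 to 259.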
